A study of Homo sapiens with 24 samples.

Results

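The gene set described here comprised 40 genes of the hypoxia response and of glycolysis, measured by RNA sequencing in T/C-28a2 cells, an immortalised human chondrocyte line. Members were taken by symbol: the subunits of the hypoxia-inducible factors (HIF), their prolyl hydroxylases, glucose transporters, glycolytic enzymes and established hypoxia targets. The rule used no measured value, but earlier results of these data were known when the members were chosen. All 40 symbols matched an identifier among the 62703 in the count tables, and 37 passed the filter on low counts, which left 16600 genes for testing.

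The study asked how WNK2, a kinase of the WNK family that acts in cell volume control, shapes the response of chondrocytes to hyperosmotic stress. There were 24 libraries in 6 groups of 4. Wild-type cells were kept in isotonic medium (WT Ctr) or in medium with 100 mM sorbitol for 7 days (WT Sor). Wild-type cells transfected with a WNK2 expression plasmid were kept without sorbitol (WNK2 trans Ctr) or, after transfection, with 100 mM sorbitol for 7 days (WNK2 trans Sor). WNK2 knockout cells, with exon 2 and its start codon removed by CRISPR/Cas9, were kept under the same conditions (WNK2- Ctr and WNK2- Sor). The knockout was grown from 1 clone, so deletion of the exon and clonal descent cannot be told apart, and the transfected cells were compared with untransfected cells, so the plasmid's cargo and the transfection cannot be told apart either. Oxygen was not varied. The study's methods call the libraries of a group biological replicates. The labels do not say whether they came from separate cultures, and the p-values measure the spread between these libraries.

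HIF is a transcription factor made of an alpha subunit that is destroyed when oxygen is plentiful and a stable beta subunit. Prolyl hydroxylases use oxygen to mark the alpha subunit for destruction, so HIF activity is set largely at the level of protein, which RNA libraries do not record. Active HIF raises glucose uptake, glycolytic enzymes, lactate export, pH regulation, blood vessel growth factors and collagen hydroxylation. Articular cartilage has no blood vessels, and its chondrocytes live at low oxygen and draw most of their energy from glycolysis.

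Total counts ran from 14153002 to 25664619 per library, with WNK2- libraries among the deepest. WNK2 itself stood at 137 ± 49 CPM (normalised read counts per 1000000 of the TMM-scaled library size, mean ± SD, n = 4) in WT Ctr and at 22.1 ± 0.755 in WNK2- Ctr. It was at 19.6 ± 2.51 CPM in WNK2- Sor. The libraries labelled WNK2 trans Ctr held only 13.7 ± 2.87 CPM, below WT Ctr and against their label, while those labelled WNK2 trans Sor held 165 ± 38.4 and WT Sor 16.5 ± 1.03 CPM. By WNK2 level WT Sor thus stood near WNK2 trans Ctr, and WT Ctr near WNK2 trans Sor, so directions drawn below from the sorbitol labels of wild-type cells and from the labels of transfected cells rest on the labels as given. WNK2 in WNK2- Sor was not below WT Sor. The comparison of those groups and the interaction of genotype and sorbitol therefore rest on the labels too. WNK2 was lower in WNK2- Ctr than in WT Ctr, but that comparison also rests on the label of WT Ctr, which stood near WNK2 trans Sor. Of 10 chondrocyte markers, SOX9 was at 0 in all libraries and COL9A1 at 0 to 3 counts, and the summed level was 98.8 CPM in WT Ctr, most of it HAPLN1, against 24.9 CPM in WNK2- Ctr. The reason for the 0 of SOX9 was not tested, and it is not read as absence of the transcript. Of 4 epithelial markers KRT8 was at 374 to 813 CPM, while EPCAM, CDH1 and KRT19 had group means of at most 1.52, 0.48 and 0.16 CPM. Leukocyte markers other than CD14 were each under 1 CPM in every group mean. The 5 endothelial markers summed to 40.4 CPM in WT Ctr, 67.2 in WT Sor, 33.7 in WNK2 trans Ctr, 118 in WNK2 trans Sor, 31.2 in WNK2- Ctr and 52.6 in WNK2- Sor. WT Ctr libraries spread more about their group mean (root mean square deviation 0.37 to 0.59 on the log2 scale, highest in WT Ctr 2) than WT Sor libraries (0.25 to 0.26).

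HIF binds a short core, ACGTG or GCGTG, and the 250 bases before each gene's RefSeq start (GRCh38.p14) were searched for both on either strand, where they read CACGT and CACGC on the other strand. A sequence was found for 36 of the 40 members, the exceptions being SLC2A3, BNIP3L, VEGFA and NDRG1. ACGTG stood in 15 of the 36 (41.7%) against 18.5% of 35116 promoters, and GCGTG in 14 (38.9%) against 32.2%. At least 1 of the cores was present in 24 members (66.7%) against 43.2% of all promoters, and 2 or more matches in 9 members (25.0%) against 19.4%. These shares describe letters in a window, not occupied sites. The following promoters are shown as examples, each with a match. ANGPTL4, CA9, HK2 and ADM had changes of over 1 on the log2 scale described below, and LDHA held 5 matches. BNIP3 held 6 and ALDOC 5. EGLN3, HK1 and SLC16A3 also had changes of over 1 and held 0 matches. Capitals mark the matches, and CACGTG is its own reverse complement and counts once on each strand.
ANGPTL4 (chr19:8363905-8364154, plus strand): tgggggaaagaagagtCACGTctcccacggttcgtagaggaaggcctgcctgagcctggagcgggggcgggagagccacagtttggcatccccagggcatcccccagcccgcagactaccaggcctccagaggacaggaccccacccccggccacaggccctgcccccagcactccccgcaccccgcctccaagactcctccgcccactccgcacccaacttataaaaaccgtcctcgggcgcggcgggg
CA9 (chr9:35673678-35673927, plus strand): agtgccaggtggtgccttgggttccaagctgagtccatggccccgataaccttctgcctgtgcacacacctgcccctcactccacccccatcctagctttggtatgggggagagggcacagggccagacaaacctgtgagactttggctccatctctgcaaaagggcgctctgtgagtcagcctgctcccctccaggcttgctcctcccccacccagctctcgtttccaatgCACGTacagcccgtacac
HK2 (chr2:74833877-74834126, plus strand): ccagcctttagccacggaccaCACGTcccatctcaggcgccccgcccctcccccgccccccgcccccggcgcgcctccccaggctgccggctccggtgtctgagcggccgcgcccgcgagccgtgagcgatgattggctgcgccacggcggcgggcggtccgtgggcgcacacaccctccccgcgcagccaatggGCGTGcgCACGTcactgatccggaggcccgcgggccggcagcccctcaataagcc
LDHA (chr11:18394313-18394562, plus strand): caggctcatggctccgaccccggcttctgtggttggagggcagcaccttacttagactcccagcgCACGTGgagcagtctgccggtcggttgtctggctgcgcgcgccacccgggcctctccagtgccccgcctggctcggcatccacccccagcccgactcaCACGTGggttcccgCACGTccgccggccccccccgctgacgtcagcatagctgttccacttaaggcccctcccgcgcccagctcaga
ADM (chr11:10304823-10305072, plus strand): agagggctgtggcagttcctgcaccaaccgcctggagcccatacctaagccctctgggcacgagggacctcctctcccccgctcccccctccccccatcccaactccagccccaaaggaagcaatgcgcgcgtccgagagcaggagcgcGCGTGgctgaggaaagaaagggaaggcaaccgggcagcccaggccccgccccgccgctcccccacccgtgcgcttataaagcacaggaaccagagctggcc
CA9 and ANGPTL4 each held 1 match, of ACGTG. HK2 held 3 matches and LDHA 5, of which 4 came from its 2 copies of CACGTG. ADM, which had the largest pairwise change of all members, held 1 GCGTG and no ACGTG.

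By level per kilobase of exon over all 24 libraries, the set was led by glycolytic enzymes. GAPDH stood at 631 CPM per kb, PKM at 371, ENO1 at 347 and TPI1 at 336 CPM per kb. PGAM1 (182), LDHA (149) and PGK1 (96.7) followed. The HIF subunits were far apart on this scale, with EPAS1 at 41.1, ARNT at 7.32 and HIF1A at 3.43 CPM per kb. Counts for 3 members were too low to test: ALDOA (0 to 5 counts per library), ALDOC (0 in every library) and EGLN1 (0 to 2 counts). ALDOA and ALDOC encode aldolases, which split fructose bisphosphate, and EGLN1 the main oxygen-sensing prolyl hydroxylase. In GENCODE 29, 53.5% of ALDOA's exon bases lie in other genes, and reads that fall on more than 1 gene may go uncounted, so a count near 0 cannot be read as absence. The same applies in part to CA9 (38.5% of exon bases shared with ARHGEF39), ANKRD37 (35.2%, UFSP2), GAPDH (14.2%) and HIF1A (5.14%, its antisense genes among them). The shared part was 10.1% for ALDOC and 0.0% for EGLN1. The reason for the counts near 0 of ALDOA, ALDOC and EGLN1 was not tested, and none of them is read as absence.

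In wild-type cells, 7 days of sorbitol raised the alpha subunits of HIF and several secreted or signalling targets while several abundant glycolytic enzymes fell. In bulk libraries, fewer cells with a transcript and less of it per cell cannot be told apart. ANGPTL4 stood at 7.73 ± 1.71 CPM in WT Ctr and 26.9 ± 3.35 in WT Sor, EPAS1 at 128 ± 15.5 and 278 ± 5.18, and VEGFA at 117 ± 18.8 and 182 ± 8.73. GAPDH, which makes the first energy-rich phosphate of the pathway, went the other way, from a mean of 1890 to 1400 CPM, and so did PGK1, which passes that phosphate to ADP, from 550 to 389 CPM. A gene was called where edgeR's quasi-likelihood F test gave an adjusted p (Benjamini-Hochberg, over all 16600 genes) under 0.05. Of the 37 tested members, 8 were called higher and 10 lower, against 11.4% higher and 12.7% lower of all tested genes. Their median log2 fold change was -0.07, beside 0.04 for all genes.

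All of the calls among the enzymes from hexokinase to pyruvate kinase in WT Sor against WT Ctr were falls. They were 5 of 13 tested: GPI (-0.34, adjusted p = 0.0211), GAPDH (-0.43, 0.00434), PGK1 (-0.50, 0.000684), PGAM1 (-0.33, 0.0156) and ENO1 (-0.33, 0.0179), all log2 fold changes with edgeR's adjusted p. The median of the 13 was -0.26. Abundant transcripts in general were lower in WT Sor: the 679 genes whose log2 CPM averaged 8 or more had a median of -0.17, and 36.8% of them were called lower and 9.87% higher. LDHA, which turns pyruvate into lactate, also fell, by 0.44 (adjusted p = 0.00481). The call of GPI was lost without WT Ctr 1, WT Ctr 4, WT Sor 3 or WT Sor 4 (highest adjusted p 0.0876 over 31 alternatives), those of PGAM1 and ENO1 without WT Ctr 1, WT Ctr 2 or WT Sor 3 (highest 0.0732 and 0.0753). With the compared groups fitted alone the calls of GPI, PGAM1 and ENO1 were lost too, and those of GPI and PGAM1 also without the filter on low counts.

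Loss of WNK2 exon 2 in isotonic medium went with higher hexokinases, glucose transporter 1, phosphofructokinase P and both of the bifunctional PFKFB enzymes. HK2 stood at 17.8 ± 1.58 CPM in WT Ctr and 48.6 ± 0.803 in WNK2- Ctr, and EPAS1 at 128 ± 15.5 and 418 ± 4.87. Other members were lower, among them ENO2 at 120 ± 14.3 against 52.9 ± 5.89 CPM and CA9 at 4.72 ± 1.21 against 1.83 ± 0.269. In all, 14 members were called higher and 7 lower, and the corresponding shares of all genes were 20.7% and 21.5%. The median of the members was 0.12, and of all genes 0. Under sorbitol, WNK2- Sor against WT Sor, 17 members were called higher and 12 lower (all genes 23.7% and 22.7%), with a median of 0.03 beside 0.02 for all genes. The 4 libraries of each group did not overlap for any of those 29 members, which was also so for 95.6% of all called genes (53.9% of all tested genes).

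In WNK2- Sor, 9 of the 13 tested glycolytic enzymes were higher than in WT Sor and 1, ENO2, was lower, with a median of 0.36. Of all tested genes 23.7% were called higher and 22.7% lower there, and of the 679 abundant genes 28.9% and 26.7%. In isotonic medium 4 of the 13 enzymes were higher (HK1, HK2, PFKP and PGAM1) and 1 lower, again ENO2. The shares there were 20.7% and 21.5% of all genes, and 24.4% and 25.9% of the abundant genes. GAPDH, PGK1, ENO1, PKM and GPI were among the 9 called under sorbitol and were not called in isotonic medium, where their log2 fold changes were 0.12, 0.01, 0.12, 0.06 and 0.23. The interaction of genotype and sorbitol, the test of that difference, called 0 of the 13 by edgeR, and GAPDH came nearest with 0.42 (SE 0.15, adjusted p = 0.0785). ENO1 in WNK2- Sor (0.27, adjusted p = 0.0297) lost its call without any 1 of WT Sor 2, 3 or 4 or WNK2- Sor 2, 3 or 4, with adjusted p up to 0.115. Its call was also lost without the filter on low counts.

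In the libraries labelled WNK2 trans Ctr, more members were called above WT Ctr than below it, few of them glycolytic enzymes. ANGPTL4 was at 25.2 ± 4.14 CPM against 7.73 ± 1.71, NDRG1 at 109 ± 6.05 against 49.7 ± 1.61 and SLC2A3 at 93.4 ± 6.9 against 45.3 ± 7.05. ADM alone was called lower, at 28.4 ± 4.37 against 66.4 ± 12.2 CPM. Here 14 members were called higher and 1 lower, beside 5.57% and 6.98% of all genes, and the median was 0.31 against 0.01. Of the 13 enzymes, HK2 alone was called, and the other 12 ran from -0.05 (GAPDH and PKM) to 0.34 (TPI1, adjusted p = 0.104). With the 2 compared groups fitted alone, 10 members were called, beside 747 of all genes.

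Under sorbitol, the transfected cells had more glycolytic enzyme RNA than untransfected cells. LDHA averaged 622 CPM in WT Sor and 1130 in WNK2 trans Sor, PKM 2730 and 3830, and GAPDH 1400 and 2090. ADM stood at 66.8 ± 4.94 and 231 ± 25.4 CPM, and ANGPTL4 went the other way, from 26.9 ± 3.35 to 10.9 ± 3.5. Called higher were 16 members and lower 3 (all genes 16.1% and 15.5%), with a median of 0.26 beside 0.01 for all genes. Among the 13 enzymes 8 were called higher and 0 lower by edgeR, with a median of 0.35. The comparisons with WT Ctr share those libraries, as do the comparisons with WT Sor, so likenesses between them are not independent.

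**Figure D1:**
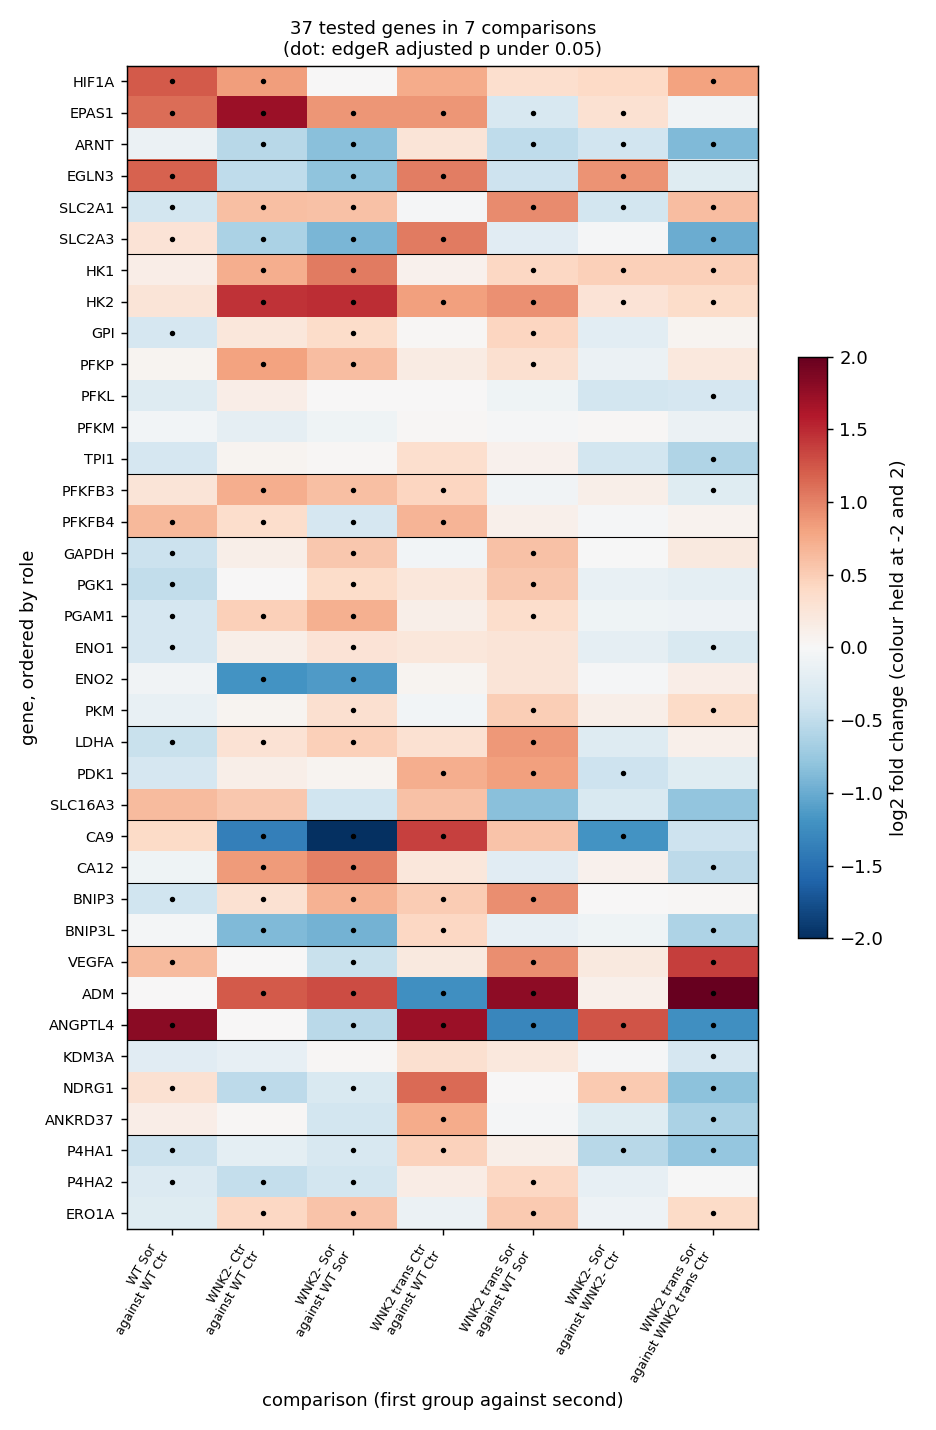
Log2 fold change (colour, held at -2 and 2) of the 37 tested members, ordered by role from top to bottom, in the 7 pairwise comparisons along the x axis, with a dot where edgeR's adjusted p was under 0.05. The column for WNK2 trans Ctr against WT Ctr is nearly all red or pale with 1 dotted blue cell (ADM), and the columns for sorbitol in wild-type and in transfected cells hold more dotted blue cells (10 and 13) than dotted red ones (8 in each).

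Sorbitol effects were also read within the knockout and within the transfected cells. WNK2- Sor against WNK2- Ctr called 6 members higher and 5 lower, with 8.25% and 6.64% of all genes called, and a median of -0.03 (all genes 0). ANGPTL4, EGLN3, NDRG1, HK1, EPAS1 and HK2 rose, and CA9, P4HA1, PDK1, ARNT and SLC2A1 fell. In WNK2 trans Sor against WNK2 trans Ctr, 8 members were called higher and 13 lower (24.3% and 23.7% of all genes; median -0.11, all genes 0.01). With upper-quartile scaling the split was 10 higher and 9 lower there, beside 4610 and 3338 of all genes. In the knockout it was 6 higher and 3 lower, beside 1574 and 866 of all genes. The interaction of genotype and sorbitol called 5 of 37 members, beside 8.65% of all genes, and the interaction of transfection and sorbitol 22, beside 35.5% of all genes.

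The alpha subunits of HIF were higher in WT Sor than in WT Ctr, EPAS1 in every library by a wide margin. EPAS1, which encodes HIF-2 alpha, was at 132, 109, 125 and 147 CPM in WT Ctr and at 273, 285, 280 and 275 CPM in WT Sor, so the groups did not overlap. The WNK2- Ctr libraries held 422, 412, 416 and 422 CPM and the WNK2- Sor libraries 510, 520, 494 and 544 CPM, above every wild-type library. EPAS1 was at 247, 248, 200 and 247 CPM in WNK2 trans Ctr and at 230, 200, 251 and 213 CPM in WNK2 trans Sor. The transfected groups overlapped each other and lay above WT Ctr and below WT Sor. Sorbitol raised EPAS1 by 1.12 (SE 0.09, adjusted p = 1.75e-09 by edgeR) in wild-type cells and by 0.31 (0.09, 0.0164) in WNK2- cells, while in transfected cells the difference was -0.07 (95% interval -0.26 to 0.11). Its interaction terms were -0.81 with genotype (adjusted p = 0.00011) and -1.19 with transfection (4.51e-08). Against WT Ctr it was higher by 1.71 in WNK2- Ctr (adjusted p = 1.37e-13) and by 0.88 in WNK2 trans Ctr (1.25e-07). The call within WNK2- cells was lost without WNK2- Ctr 2, WNK2- Ctr 3 or WNK2- Sor 4 (adjusted p up to 0.0879).

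HIF1A, which encodes HIF-1 alpha, was the lowest of the 3 subunits and the most scattered. Its levels were 6.43, 6.51, 11.8 and 10.4 CPM in WT Ctr and 17.8, 21.9, 22.5 and 19.8 CPM in WT Sor, without overlap. In WNK2- Ctr it stood at 10.5, 17.0, 18.2 and 17.1 CPM and in WNK2- Sor at 22.2, 20, 21.5 and 19.1 CPM. WNK2- Ctr 1 lay within the WT Ctr range and the other libraries of the knockout above it. The transfected cells spread widely, at 23.1, 15.7, 7.22 and 12.6 CPM without sorbitol and 13.5, 31.8, 21.7 and 35.7 CPM with it. HIF1A rose by 1.22 (SE 0.29, adjusted p = 0.00296) with sorbitol in wild-type cells. It was higher by 0.84 (0.29, 0.0203) in WNK2- Ctr than in WT Ctr, a call lost without WT Ctr 1, WT Ctr 2 or WNK2- Ctr 3 (adjusted p up to 0.0723), and differed by 0.01 (95% interval -0.56 to 0.58) between WNK2- Sor and WT Sor. Its rise of 0.81 in transfected cells (adjusted p = 0.0174) was lost without WNK2 trans Ctr 3 or 4 or WNK2 trans Sor 2 or 4 (adjusted p up to 0.0956). That rise was also lost with the compared groups fitted alone. Neither interaction was called (-0.82, adjusted p = 0.204; -0.41, 0.444).

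ARNT, the beta subunit, was lower in the knockout than in wild-type cells and fell with sorbitol in the knockout and after transfection. It was at 56.3, 54.5, 60 and 59.5 CPM in WT Ctr and 53.5, 56.2, 53.4 and 50 CPM in WT Sor, which overlapped. In WNK2- cells the levels were 35.8, 38.3, 43.5 and 39.4 CPM without sorbitol and 32.6, 26.1, 29.7 and 31.3 CPM with it, all below the wild-type libraries. Transfected cells held 76.1, 73.3, 59.7 and 67.0 CPM in isotonic medium and 30.5, 39.6, 36.8 and 42.4 CPM under sorbitol, again without overlap. ARNT fell by 0.89 (SE 0.10, adjusted p = 9.43e-08) with sorbitol in transfected cells and by 0.39 (0.10, 0.00854) in WNK2- cells, and the interval in wild-type cells was -0.32 to 0.10. In WNK2- Ctr against WT Ctr it was lower, at -0.55 (adjusted p = 9.13e-05), and in WNK2- Sor against WT Sor at -0.83 (2.26e-07).

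**Figure D2:**
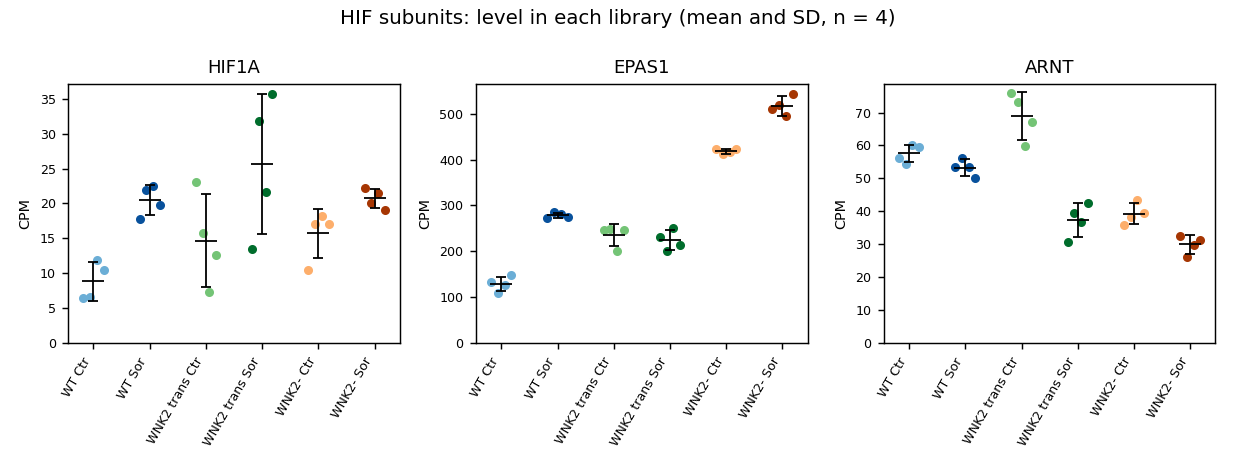
Level in CPM (y axis) of HIF1A, EPAS1 and ARNT in each library (points) of the 6 groups (x axis), with the group mean and SD (bars, n = 4). EPAS1 sits at 109 to 147 CPM in WT Ctr, at 273 to 285 in WT Sor and at 412 to 544 in the WNK2- groups, while HIF1A points of the transfected groups spread from 7.22 to 35.7 CPM.

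EGLN3, a prolyl hydroxylase that is itself a HIF target, was a low transcript. Its levels were 4.66, 1.55, 3.71 and 5.49 CPM in WT Ctr and 8.41, 7.93, 9.94 and 8.55 CPM in WT Sor, without overlap. WNK2- cells went from 3.20, 2.33, 2.86 and 2.40 CPM to 5.87, 4.63, 5.36 and 4.17 CPM with sorbitol, also without overlap. WNK2 trans Ctr held 8.12, 7.13, 8.02 and 7.94 CPM and WNK2 trans Sor 5.89, 6.44, 5.81 and 7.99 CPM, which overlapped. Sorbitol raised EGLN3 by 1.18 in wild-type cells (SE 0.22, adjusted p = 0.000415) and by 0.90 in WNK2- cells (0.23, 0.00724), and the genotype interaction of -0.29 was not called (95% interval -0.96 to 0.38). The transfection interaction was -1.43 (adjusted p = 0.000768), and EGLN3 was higher in WNK2 trans Ctr than in WT Ctr (1.02, adjusted p = 0.00258). That last call was lost with the 2 groups fitted alone (0.0768).

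The glucose transporters moved in opposite directions. SLC2A3, a high-affinity transporter, was at 40.5, 55.0, 46.1 and 39.7 CPM in WT Ctr, 57.9, 51.6, 56.2 and 52.1 in WT Sor, and 29.1, 27.9, 29 and 31.2 in WNK2- Ctr. WNK2- Sor libraries had 30.1, 28.8, 28.6 and 27.6 CPM, like the knockout without sorbitol and below all wild-type libraries. WNK2 trans Ctr had 103, 93.7, 87.8 and 89.1 CPM and WNK2 trans Sor 44.1, 50, 50.2 and 42.2 CPM. The first of these stood above every other library in the series. SLC2A3 was lower in WNK2- Ctr (-0.63, SE 0.10, adjusted p = 9.4e-06) and higher by 1.04 in WNK2 trans Ctr (0.10, 2.53e-08) than in WT Ctr, and fell by 1.00 with sorbitol in transfected cells (adjusted p = 4.09e-09). Its rise of 0.27 in WT Sor (adjusted p = 0.0435) overlapped WT Ctr and was lost without WT Ctr 1, WT Ctr 4, WT Sor 1, WT Sor 2, WT Sor 3 or WNK2- Sor 4 (up to 0.129). The rise was also lost with RLE scaling, without the filter on low counts and with the compared groups fitted alone. SLC2A1, the widespread basal transporter, ran from 93.5 to 220 CPM over the libraries and was higher in WNK2- Ctr (0.60, adjusted p = 0.00031), WNK2- Sor (0.59, 0.000281) and WNK2 trans Sor (0.95, 1.78e-06) than in the matching wild-type group. It fell with sorbitol in wild-type cells (-0.36, adjusted p = 0.0331) and rose in transfected cells (0.61, 0.000205), with a transfection interaction of 0.97 (9.18e-05). The fall in wild-type cells was lost without WT Ctr 1, WT Ctr 4, WT Sor 1, WT Sor 3 or WT Sor 4 (up to 0.13). It was lost too without the filter on low counts and with the compared groups fitted alone.

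Hexokinases, which trap glucose in the cell as glucose 6-phosphate, were higher in the knockout than in wild-type cells in both media. HK2, the HIF-responsive isozyme, was at 19.2, 16.2, 19.1 and 16.7 CPM in WT Ctr and 22.5, 22.9, 21.7 and 17.9 in WT Sor. In WNK2- cells it was at 48.9, 47.9, 47.9 and 49.5 CPM, and at 58.3, 60.6, 55.6 and 60.9 with sorbitol. Transfected cells lay between, at 33.4, 33.5, 28.6 and 29.9 CPM and, with sorbitol, 37.5, 41.6, 44.6 and 36.8. The order wild type, transfected, knockout held in both media with no overlap between lines. HK2 was higher by 1.45 in WNK2- Ctr (SE 0.10, adjusted p = 7.45e-12) and by 0.82 in WNK2 trans Ctr (0.10, 1.07e-06) than in WT Ctr, and under sorbitol by 1.47 and 0.92 (adjusted p = 2.23e-12 and 5.33e-08). Sorbitol itself gave 0.26 in wild-type cells (not called, adjusted p = 0.0531), 0.28 in WNK2- cells and 0.36 in transfected cells, and the genotype interaction was 0.02 (95% interval -0.26 to 0.30). The call in WNK2- cells (adjusted p = 0.0385) was lost in 10 of 31 alternatives (up to 0.207), among them each omission of a WNK2- Ctr library.

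HK1, the constitutive isozyme, stood at 135, 131, 103 and 125 CPM in WT Ctr and 146, 130, 134 and 135 in WT Sor. WNK2- cells held 223, 205, 186 and 198 CPM and, with sorbitol, 277, 301, 264 and 282. Transfected cells held 129, 123, 150 and 122 CPM, and 192, 169, 186 and 176 with sorbitol. The wild-type groups overlapped each other, while both sorbitol groups of the other lines lay above their isotonic partners. Sorbitol raised HK1 by 0.47 in WNK2- (adjusted p = 0.000516) and by 0.47 in transfected cells (0.000131), against 0.14 in wild type (95% interval -0.04 to 0.33). The interactions were 0.33 with genotype, not called (adjusted p = 0.111), and 0.32 with transfection (0.0483), and the latter lost its call in 23 of the 31 alternatives (adjusted p up to 0.181), among them the omission of most single libraries.

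Of the remaining enzymes above triose phosphates, GPI turns glucose 6-phosphate into fructose 6-phosphate, PFKP, PFKL and PFKM are the isoforms of phosphofructokinase, the committed step, and TPI1 interconverts the triose phosphates. PFKP was higher in WNK2- Ctr (0.80, adjusted p = 1.77e-07), WNK2- Sor (0.62, 5.46e-06) and WNK2 trans Sor (0.32, 0.0109). PFKM, the muscle isoform, was called in 0 of the 9 comparisons by edgeR and stayed between 75.5 and 104 CPM in all libraries. PFKL, the liver isoform, was called once, in WNK2 trans Sor against WNK2 trans Ctr (-0.34, adjusted p = 0.0415), where a correction for GC content and length turned it to 0.26. TPI1 fell with sorbitol in transfected cells (-0.60, adjusted p = 0.000803), where WNK2 trans Ctr and WNK2 trans Sor overlapped. The enzymes that make and remove fructose 2,6-bisphosphate, the allosteric activator of phosphofructokinase, were both higher in WNK2- Ctr (PFKFB3 0.73, adjusted p = 9.2e-07; PFKFB4 0.35, 0.00834) and in WNK2 trans Ctr (0.43, 0.0028; 0.68, 5.57e-05). PFKFB4 rose with sorbitol in wild-type cells (0.65, adjusted p = 8.64e-05) and not in WNK2- cells (-0.03, 95% interval -0.25 to 0.19), with an interaction of -0.68 (0.00446).

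**Figure D3:**
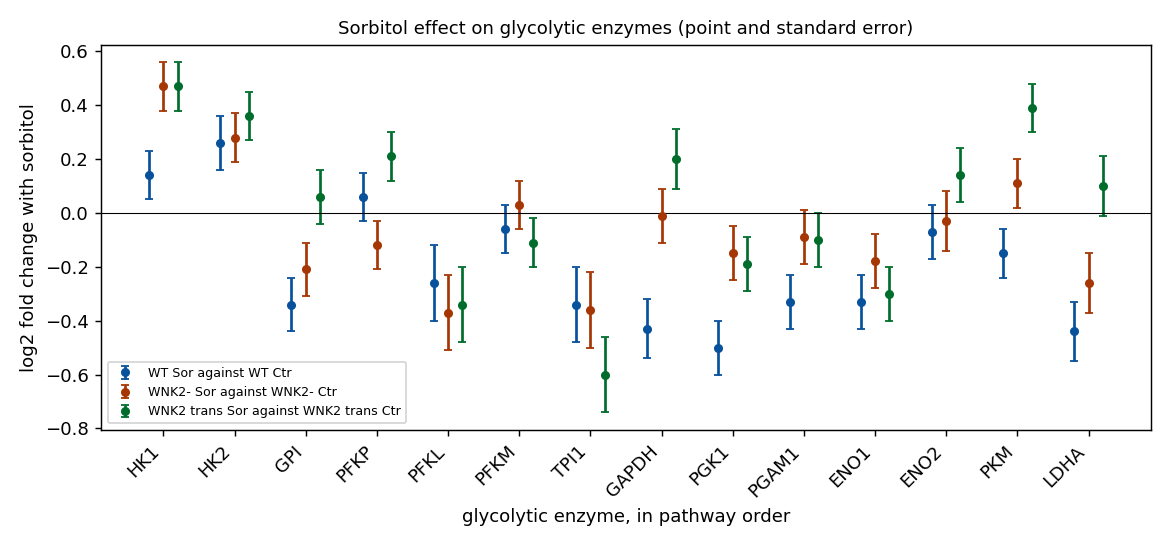
Log2 fold change with sorbitol (y axis, point and standard error) for each tested enzyme from hexokinase to lactate dehydrogenase in pathway order (x axis), in wild-type (blue), WNK2- (brown) and transfected cells (green). Blue points from GAPDH to LDHA lie at or below -0.07, while the green points of HK1, HK2 and PKM lie at 0.36 to 0.47.

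In the later steps of glycolysis ENO2 stood apart from the other enzymes. ENO2, the neuronal enolase and a HIF target, was at 132, 131, 102 and 117 CPM in WT Ctr, 122, 115, 104 and 117 in WT Sor, 58.5, 46.8, 48.9 and 57.3 in WNK2- Ctr, and 54.4, 55.5, 50.2 and 47.6 in WNK2- Sor. Transfected cells held 113, 111, 145 and 131 CPM and, with sorbitol, 155, 124, 140 and 131. All knockout libraries lay below all others, and the sorbitol groups overlapped their isotonic partners in each line. ENO2 was lower than in the matching wild-type group in WNK2- Ctr (-1.19, SE 0.11, adjusted p = 2.13e-09) and in WNK2- Sor (-1.14, 2.35e-09). ENO1, the ubiquitous enolase, had 0.12 (95% interval -0.09 to 0.33) and 0.27 in the same comparisons. PGAM1, which moves the phosphate of 3-phosphoglycerate, was higher in WNK2- Ctr (0.47, adjusted p = 0.000401) and WNK2- Sor (0.71, 1.59e-06), and PKM, pyruvate kinase, rose with sorbitol in transfected cells (0.39, 0.00121), with a transfection interaction of 0.53 (0.00223).

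At the branch of pyruvate, LDHA and PDK1, a kinase that inhibits pyruvate dehydrogenase, both had their highest group means in transfected cells. For LDHA, WNK2 trans Ctr (mean 1050 CPM) and WNK2- Ctr (1030 CPM) overlapped. In isotonic medium LDHA was called above WT Ctr in WNK2- Ctr and not in WNK2 trans Ctr. LDHA ran from 587 CPM (WT Sor) to 1250 CPM (WNK2 trans Ctr), was higher in WNK2 trans Sor than in WT Sor by 0.86 (SE 0.11, adjusted p = 1.81e-06), and had a transfection interaction of 0.54 (0.00875), which a correction for GC content and length took to 0.27 (0.136). PDK1 was higher in WNK2 trans Ctr (0.73, adjusted p = 0.000319) and WNK2 trans Sor (0.82, 3.3e-05) than in the wild-type groups. SLC16A3, the lactate exporter MCT4, was uneven within groups: 295, 72.6, 140 and 255 CPM in WT Ctr, 310, 308, 265 and 302 in WT Sor, 271, 237, 328 and 315 in WNK2 trans Ctr, and 296, 64.2, 134 and 171 in WNK2 trans Sor. WNK2- Ctr held 279, 285, 258 and 289 CPM and WNK2- Sor 186, 292, 177 and 240. Within WT Ctr and WNK2 trans Sor the libraries differed more than 2-fold and stood in the same order by replicate number, and no pairwise comparison of SLC16A3 was called. Its sorbitol differences were 0.64 in wild-type (95% interval -0.05 to 1.32) and -0.79 in transfected cells (-1.48 to -0.10), and the transfection interaction was -1.42 (SE 0.46, adjusted p = 0.0189). WNK2, whose counts came from the same libraries, was also lowest in WT Ctr 2 (78.4 CPM) and WT Ctr 3 (116 CPM) of its group, and the part of that spread in the SLC16A3 values was not tested.

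The carbonic anhydrases, which handle acid outside the cell, moved in opposite directions in the knockout. CA9, a classical hypoxia marker, was low: 5.97, 5.22, 3.12 and 4.55 CPM in WT Ctr, 7.88, 5.72, 5.47 and 5.50 in WT Sor, 1.91, 1.64, 1.59 and 2.18 in WNK2- Ctr, and 0.483, 1.09, 0.998 and 0.661 in WNK2- Sor. The knockout libraries lay below all wild-type libraries, and those with sorbitol below those without. Transfected cells held 10.6, 9.68, 17.3 and 11 CPM and, with sorbitol, 15.2, 7.48, 8.05 and 6.04. CA9 was lower in WNK2- Ctr than in WT Ctr (-1.36, SE 0.29, adjusted p = 0.000449) and in WNK2- Sor than in WT Sor (-2.94, SE 0.31, 2.19e-08), where it stood at 0.131 of the WT Sor level. Sorbitol changed it by -1.19 in WNK2- cells (adjusted p = 0.0149) and the genotype interaction was -1.58 (0.0214), and both calls were lost without WNK2- Ctr 4 or WNK2- Sor 1 (up to 0.0744 and 0.062). CA12 was at 17.3, 13.9, 17.0 and 15.7 CPM in WT Ctr, 15.2, 14.9, 14.6 and 15.9 in WT Sor, 28.9, 29.5, 24.2 and 32.9 in WNK2- Ctr, and 29.9, 31.8, 29.7 and 30.7 in WNK2- Sor. All knockout libraries stood above the wild-type ones. Transfected cells had 20, 17.9, 17.6 and 18.9 CPM and, with sorbitol, 13.1, 13.9, 12.7 and 11.8. CA12 was higher by 0.85 in WNK2- Ctr (adjusted p = 1.49e-07) and 1.01 in WNK2- Sor (5.07e-09), and fell by 0.53 with sorbitol in transfected cells (0.000111).

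Among secreted targets, ANGPTL4, a lipoprotein lipase inhibitor, had the largest sorbitol response in wild-type cells. It was at 10.0, 7.09, 6 and 7.80 CPM in WT Ctr and 24.3, 23.7, 29.4 and 30.1 in WT Sor. WNK2- cells went from 8.20, 7.69, 6.47 and 8.48 CPM to 16.8, 19.3, 16.0 and 22.0 CPM with sorbitol. Transfected cells went from 28.2, 19.2, 27.5 and 26.1 CPM down to 15.9, 7.81, 9.77 and 9.99 CPM. None of the 3 pairs of groups overlapped, and the direction in transfected cells was the reverse of the other lines. The rise was 1.80 in wild-type (SE 0.19, adjusted p = 2.28e-07; 3.48-fold) and 1.26 in WNK2- cells (0.18, 2.12e-05; 2.40-fold), and the fall in transfected cells -1.22 (0.18, 5.94e-06). The transfection interaction of -3.02 (adjusted p = 2.25e-09) was the most negative among members. The genotype interaction was -0.54 (95% interval -1.08 to 0.01). In isotonic medium WNK2- and wild-type cells differed by 0 (interval -0.40 to 0.40), and under sorbitol WNK2- Sor was lower than WT Sor (-0.54, adjusted p = 0.0144), a call lost without WNK2- Sor 3 and with the correction for GC content and length (up to 0.0817).

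ADM, which encodes the vasodilator adrenomedullin, rose with sorbitol in transfected cells and was not called in the other lines. Its levels were 75.8, 69.8, 48.5 and 71.7 CPM in WT Ctr, 62.6, 62.7, 72.4 and 69.5 in WT Sor, 174, 152, 139 and 154 in WNK2- Ctr, and 157, 172, 164 and 169 in WNK2- Sor. In transfected cells ADM was at 25.0, 24.4, 32.9 and 31.4 CPM without sorbitol and 266, 208, 217 and 232 CPM with it. The former were the lowest and the latter the highest ADM levels of the series. The rise was 3.02 (SE 0.13, adjusted p = 1.45e-15), or 8.12-fold, against 0.01 in wild-type (95% interval -0.24 to 0.26) and 0.10 in WNK2- cells (-0.15 to 0.34), with a transfection interaction of 3.01 (1.34e-12). Endothelial markers moved with ADM in transfected cells: CDH5 averaged 1.15 CPM without sorbitol and 50.1 with it, TIE1 0.526 and 17, and PECAM1 31.5 and 50.3, while KDR and VWF had group means under 1 CPM. PECAM1 and TIE1 were also higher with sorbitol in the lines where ADM was not called. PECAM1 averaged 26.8 and 52.7 CPM in wild-type and 10.4 and 24 in WNK2- cells, and TIE1 2.43 and 4.29, and 4.61 and 13. CDH5 was not higher there (10.5 and 9.37, and 13.4 and 11.1 CPM). The part of these markers in the ADM values was not tested. ADM was higher by 1.22 in WNK2- Ctr than in WT Ctr (adjusted p = 1.17e-08) and by 1.31 under sorbitol (2.06e-09), and lower in WNK2 trans Ctr than in WT Ctr (-1.23, 1.28e-07).

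VEGFA, the main growth factor for blood vessels, rose with sorbitol in wild-type cells and, by the labels as given, more in transfected cells. WT Ctr held 140, 97.0, 108 and 123 CPM and WT Sor 176, 173, 187 and 192. WNK2- cells held 122, 118, 109 and 119 CPM, and 126, 144, 132 and 130 with sorbitol. In transfected cells the levels were 121, 124, 142 and 148 CPM, and 369, 299, 365 and 357 with sorbitol. The isotonic groups of the 3 lines overlapped, whereas each sorbitol group lay above its partner. VEGFA rose by 0.64 in wild-type (SE 0.10, adjusted p = 5.61e-05) and by 1.38 in transfected cells (0.10, 3.44e-11), and was not called in WNK2- cells (0.19, 95% interval -0.02 to 0.40). The transfection interaction was 0.74 (adjusted p = 0.000187). The genotype interaction of -0.44 (0.0473) lost its call in 18 of the 31 alternatives (up to 0.21).

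**Figure D4:**
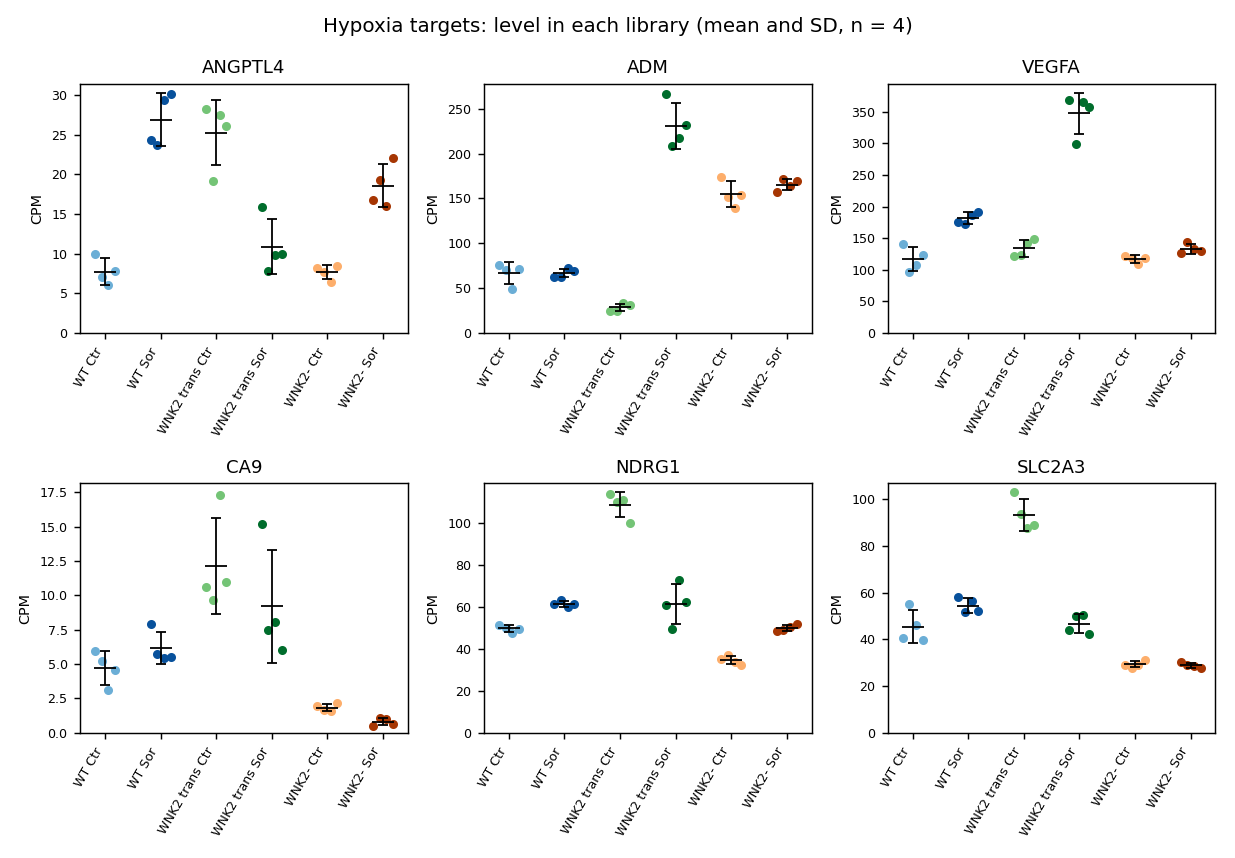
Level in CPM (y axis) of 6 hypoxia targets in each library (points) of the 6 groups (x axis), with the group mean and SD (bars, n = 4). ANGPTL4 is high in WT Sor and WNK2 trans Ctr (19.2 to 30.1 CPM), ADM and VEGFA are highest in WNK2 trans Sor, and SLC2A3 and NDRG1 are highest in WNK2 trans Ctr.

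NDRG1, a stress-induced gene used as a hypoxia marker, was at 51.6, 50.1, 47.7 and 49.6 CPM in WT Ctr and 61.6, 63.2, 59.9 and 61.3 in WT Sor. WNK2- cells held 35.3, 37.0, 33.6 and 32.5 CPM, and 48.6, 48.8, 50.5 and 51.7 with sorbitol. Transfected cells held 114, 110, 111 and 100 CPM, and 60.8, 49.5, 73.0 and 62.5 with sorbitol. Sorbitol groups lay above their partners in the first 2 lines and below in the transfected cells. The changes were 0.31 in wild-type (SE 0.09, adjusted p = 0.0132), 0.53 in WNK2- (0.09, 0.000128) and -0.82 in transfected cells (0.09, 3.29e-08), with interactions of 0.22 (95% interval -0.04 to 0.48) and -1.13 (adjusted p = 1.17e-07). KDM3A, a histone demethylase, was called only in transfected cells under sorbitol (-0.34, adjusted p = 0.0264). ANKRD37, a small hypoxia-induced gene, was higher in WNK2 trans Ctr than in WT Ctr (0.74, 0.00966) and fell with sorbitol after transfection (-0.63, 0.00741), at 3.05 to 8.03 CPM over all libraries.

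The mitophagy receptors BNIP3 and BNIP3L, which mark mitochondria for removal, were related genes with unlike changes. BNIP3 was higher and BNIP3L lower in WNK2- Ctr than in WT Ctr (0.30, adjusted p = 0.00388; -0.88, 1.2e-10) and in WNK2- Sor than in WT Sor (0.70, 9.53e-08; -0.94, 2.45e-11). In the same order, both were higher in WNK2 trans Ctr (0.51, adjusted p = 7.17e-05; 0.41, 0.000114). Sorbitol lowered BNIP3 in wild-type cells (-0.40, adjusted p = 0.000894) and BNIP3L in transfected cells (-0.62, 3.84e-08). P4HA1 and P4HA2, the catalytic subunits of collagen prolyl hydroxylase, and ERO1A, an oxidase of the endoplasmic reticulum, bear on collagen folding. P4HA1 fell with sorbitol in all 3 lines: by 0.43 in wild-type (adjusted p = 0.00269), 0.55 in WNK2- (0.000357) and 0.78 in transfected cells (5.88e-07). P4HA2 was lower in WNK2- Ctr (-0.48, adjusted p = 2.73e-05) and WNK2- Sor (-0.36, 0.000507) than in wild type, whereas ERO1A was higher in both (0.42, 0.0031; 0.57, 0.000137).

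A further 56 genes of these pathways were taken as a second list (HIF regulators, other isozymes, pyruvate handling, glycogen and other hypoxia targets), of which 44 were tested. In WT Sor against WT Ctr 6 were called higher and 10 lower (all genes 11.4% and 12.7%). Against the matching wild-type group, 7 were higher and 17 lower in WNK2- Ctr (20.7% and 21.5%), 10 and 19 in WNK2- Sor (23.7% and 22.7%), 6 and 4 in WNK2 trans Ctr (5.57% and 6.98%), and 10 and 10 in WNK2 trans Sor (16.1% and 15.5%). DDIT4, an inhibitor of mTORC1 induced by hypoxia and osmotic stress, averaged 39.7 CPM in WT Ctr and 94.1 in WT Sor (1.25, adjusted p = 0.000169), and 17.4 CPM in WNK2- Sor (-2.44 against WT Sor, 1.97e-09). STC2, a secreted glycoprotein, was at 282 CPM in WT Ctr, 517 in WT Sor (0.88, adjusted p = 3.55e-06) and 1010 in WNK2- Ctr (1.84, 2.22e-12). BHLHE41, a transcriptional repressor, was lower in WT Sor, WNK2- Ctr and WNK2 trans Ctr than in WT Ctr (-0.94, -1.68 and -1.09, adjusted p = 0.000913, 1.87e-07 and 0.00029). Of the glycogen enzymes, PYGL, which releases glucose from glycogen, was higher in WNK2- Ctr (1.63, adjusted p = 1.01e-13) and WNK2- Sor (1.92, 2.16e-15), and GBE1, the branching enzyme, in WNK2 trans Sor (0.96, 4.82e-07). ARNT2, a paralog of ARNT, was lower in WNK2 trans Ctr (-0.77, adjusted p = 1.94e-05).

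In the knockout clone some members moved with the genes beside them on the chromosome. The 40 nearest tested genes of HIF1A on chromosome 14, 20 on each side, were higher in WNK2- Ctr than in WT Ctr by a median of 0.69 (log2), and 67.5% of them were called, beside 0.84 for HIF1A. Under sorbitol the neighbours stood at 0.68 and HIF1A at 0.01. ERO1A, also on chromosome 14, had 0.42 beside 0.43 for its neighbours, and CA9 on chromosome 9 had -1.36 beside -0.49. BNIP3 (0.30 beside 0.29), PFKP (0.80 beside 0.34), PGAM1 (0.47 beside 0.22) and ARNT (-0.55 beside -0.28) also moved in the direction of their neighbours. Other members moved without their neighbours: EPAS1 (1.71 beside 0.11), HK2 (1.45 beside -0.07), ADM (1.22 beside 0.06), CA12 (0.85 beside 0.05), ENO2 (-1.19 beside 0.01) and BNIP3L (-0.88 beside -0.04). NDRG1 went against a neighbourhood with a median of 0.50, and SLC2A3 (-0.63 beside 0.24), PFKFB4 (0.35 beside -0.20) and LDHA (0.29 beside -0.29) also went against theirs. Copy number was not measured, and the part of the neighbourhood in these values was not tested.

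**Figure D5:**
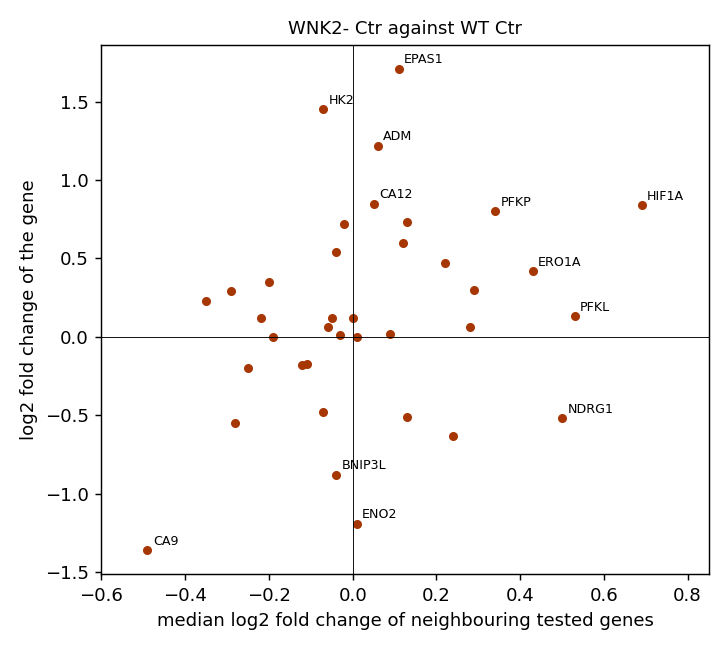
Log2 fold change of each tested member (y axis) against the median of its neighbouring tested genes (x axis, up to 20 on each side) in WNK2- Ctr against WT Ctr, with members beyond 0.8 or neighbour medians beyond 0.4 named. HIF1A and CA9 lie at the outer ends of the x axis (0.69 and -0.49), while EPAS1, HK2, ADM and ENO2 lie near 0 on it.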

How the data were processed

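Poly(A) RNA libraries, 24 in all, were analysed from the tables of read counts per Ensembl gene that the authors deposited. Per the submitters' processing notes, FastQC 0.11.9, HISAT2 2.2.1, HTSeq 2.0.2, DESeq2 1.38.3 and GRCh38 were used. The annotation release and the strand setting are not given in the sources used here. The counts, whole numbers and not normalised, were filtered by filterByExpr, with at least 10 counts in enough libraries and 15 in all. Library sizes were scaled by TMM, and 6 group means were fitted in edgeR 4.0.16 (R 4.3.3). Contrasts were tested by the quasi-likelihood F test, two-sided, and p was adjusted over all tested genes by Benjamini-Hochberg. Log2 fold changes are given with standard errors, and 95% intervals are the estimate plus or minus the standard error times the t quantile with 18 degrees of freedom. All 40 members are named, and values in every library are given for the HIF subunits and for each member with a called log2 fold change of at least 1 in size in any of the 9 comparisons. From the second list, the 3 called genes with the largest change in each comparison with a wild-type group are named, among those whose log2 CPM averaged 3 or more, except an item that is not reported here. Members and lists were chosen with earlier results of these data known. The same fit was tested on simulated counts. Symbols, lengths and overlaps came from GENCODE 29, and promoters from RefSeq (GRCh38.p14). Replicate pairs within a group differed beyond sampling noise (chi-square per degree of freedom 2.3 to 68.4 over 36 pairs), so each counted as a library of its own. Counts of 0 allow up to 3 counts per library, and such limits cover counting error only. Alternatives were RLE and upper-quartile scaling, no filter, a replicate block, the compared groups alone, DESeq2 1.42.0 and omission of each library. A correction for GC content and length, centred to keep the TMM scaling, was added after seeing the data.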

Additional observations from a re-analysis of the deposited data

Results flagged for a closer look

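Of 96 groups of 4 libraries examined for a library far from the rest, 3 held one, and chance marks about 1 in 20 groups. HIF1A was lowest in WNK2- Ctr 1, at 10.5 CPM, while the other libraries of that group stood at 17.0 to 18.2 CPM. EPAS1 was lowest in WNK2 trans Ctr 3, at 200 CPM beside 247 to 248 in the others. CA9 was highest in WT Sor 1, at 7.88 CPM beside 5.47 to 5.72.

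The sorbitol effect differed between WNK2- and wild-type cells for 5 of 37 tested members by edgeR's interaction test, beside 8.65% of all tested genes. The differences in log2 fold change were -0.81 for EPAS1, -0.68 for PFKFB4, -1.58 for CA9, 0.40 for BNIP3 and -0.44 for VEGFA, with adjusted p from 0.00011 (EPAS1) to 0.0473 (VEGFA). WNK2 was not lower in WNK2- Sor than in WT Sor, so these values rest on the labels as given.

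Between transfected and wild-type cells the sorbitol effect differed for 22 of 37 tested members, beside 35.5% of all tested genes. The difference was negative for ANGPTL4 (-3.02), EGLN3 (-1.43), SLC16A3 (-1.42), SLC2A3 (-1.27), EPAS1 (-1.19), NDRG1 (-1.13), ARNT (-0.77), ANKRD37 (-0.77), PFKFB4 (-0.58), BNIP3L (-0.58), PFKFB3 (-0.49) and CA12 (-0.45). It was positive for ADM (3.01), SLC2A1 (0.97), VEGFA (0.74), ERO1A (0.64), GAPDH (0.63), LDHA (0.54), PKM (0.53), BNIP3 (0.42), GPI (0.39) and HK1 (0.32). Adjusted p ran from 1.34e-12 (ADM) to 0.0483 (HK1). GPI lost its call in 15 of 31 alternatives and HK1 in 23. WNK2 in the isotonic transfected libraries went against the label, which bears on the direction of each of these values.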

How the results depend on the processing

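Each of the 161 calls of members was recomputed under 31 alternatives, 24 of which left out 1 library. In all of them 127 calls held, 34 were lost at least once and 1 turned: PFKL in WNK2 trans Sor against WNK2 trans Ctr went from -0.34 to 0.26 (adjusted p = 0.0048) with the correction for GC content and length, and the cause was not tested. Calls lost numbered 20 with the compared groups fitted alone, 15 without the filter on low counts, 6 with upper-quartile scaling, 4 with the correction for GC content and length, 3 with RLE scaling and 1 with DESeq2. DESeq2 put the median of all genes at 0.10 in WNK2- Sor against WT Sor.

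The genotype interaction was the least stable count of members: 5 became 3 without the filter and 11 with the correction for GC content and length (4 positive and 7 negative). Over omissions of 1 library it ran from 2 (without WNK2- Ctr 4) to 6, and stood at 3 without WT Sor 2, 3 or 4, WNK2- Ctr 2 or 3, or WNK2- Sor 1 or 3. Over all tested genes the same interaction moved from 1436 to 2228 calls with that correction (1014 positive and 1214 negative). Over omissions it ran between 849 (without WNK2- Sor 3) and 1908, with 944 without WNK2- Ctr 2. Members called in WNK2- Sor against WNK2- Ctr, 11 as reported, ran from 7 to 13 over omissions and were 7 without WNK2- Ctr 2, 3 or 4 or WNK2- Sor 4. All genes called there rose from 2473 to 4824 with the compared groups alone and to 3894 with the correction. In WNK2 trans Ctr against WT Ctr the 2082 genes called became 747 with the compared groups alone and 3126 with the correction. Members in WT Sor against WT Ctr split 7 higher and 5 lower with the compared groups alone (all genes 1424 and 1268). In WNK2 trans Sor against WNK2 trans Ctr they split 13 and 13 with the correction (all genes 4368 and 4688).

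The replicate numbers did not meet the criterion for pairing, a correlation over 0.1 in every pair. Over 60 pairs of same-numbered libraries, correlations of deviations ran from -0.29 to 0.46, 9 were over 0.1, and in 18 of the 60 the library correlated best with its own number in the other group. WT Ctr with WNK2 trans Sor came nearest, at 0.46, 0.26, 0.12 and 0.06. With the replicate number as a block, 18 members were called in WT Sor against WT Ctr and 4 in the genotype interaction, and 3 of the 161 calls were lost (SLC2A1 in WNK2- Sor against WNK2- Ctr, VEGFA in the genotype interaction and HK1 in the transfection interaction).

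Calls lost on leaving out a single library, besides those named in the report, were P4HA2 in WT Sor against WT Ctr (without WT Ctr 2), LDHA in WNK2- Ctr against WT Ctr (without WT Ctr 1, 3 or 4 or WNK2- Ctr 1 or 3), PFKFB4 in WNK2- Sor against WT Sor (without WNK2- Sor 3), BNIP3 in the genotype interaction (8 libraries), SLC2A1 (8) and PDK1 (6) in WNK2- Sor against WNK2- Ctr, GPI (13, adjusted p up to 0.109) and ANKRD37 (3) in the transfection interaction, and, in WNK2 trans Sor against WNK2 trans Ctr, KDM3A (4 libraries), PFKFB3 (3), ENO1 (2) and PFKL (6). CA9 at 0.483 CPM and EGLN3 at 1.55 CPM in their lowest libraries, and HIF1A at 98 counts in its lowest, limit the precision for these genes.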
